A study of Homo sapiens with 43 samples.

Results

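The 8 genes described here encode parts of the junctions that hold epithelial cells together and factors that keep cells epithelial. They were chosen by name: the adhesion molecules CDH1, CDH3, EPCAM and CLDN7, the transcription factors GRHL2, OVOL2 and ELF3, and the RNA-splicing factor ESRP1. Each gene was taken with 20 kb on either side, in hg19 coordinates as for all peaks below, and because CDH3 and CDH1 are neighbours they share a window, so that the 8 genes made 7 windows. For comparison with the genome, 39240 bins of 50 kb held H3K27ac in some list; 15 bins were centred in one of these windows, and 10 of them passed a filter on low values (a mean of at least 2000 bp covered).

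The study mapped chromatin by chromatin immunoprecipitation and sequencing (ChIP-seq) in established lung squamous cell carcinoma (LUSC) lines, and 27 peak lists were used: 17 for H3K27ac, the acetylation of histone H3 found at active promoters and enhancers, 7 for Sox2, 2 for Brn2 and 1 for p63. Its title asks about a class of these tumours marked by Sox2 and Brn2. The 13 unmodified lines were sorted by which ChIP experiments the labels list for them. Both LK2 and NCI-H520 had Sox2 and Brn2 ChIP (set A, 2 lines). HCC95, KNS62 and HCC2814 had Sox2 ChIP without Brn2 (set B, 3 lines). Only H3K27ac ChIP was listed for Calu-1, EBC-1, HARA, HCC2279, HCC2450, LC-1/SQSF, NCI-H2887 and SQ-1 (set C, 8 lines). A set therefore says what was assayed in a line, not which factors the line expresses. LK2_GFP and LK2_DNp63 are LK2 cells that the labels name after a fluorescent protein and after the basal-cell isoform of p63, without saying how they were made or whether they are clones. All lines were grown in the same medium with serum, and no treatment is listed for them.

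E-cadherin, the product of CDH1, joins epithelial cells at adherens junctions, and P-cadherin, from CDH3, does the same mostly in basal cells. EpCAM is a surface adhesion molecule of simple epithelia, and claudin-7 is a tight-junction protein. GRHL2 (grainyhead-like), OVOL2 (a zinc-finger repressor) and ELF3 (an ETS factor) maintain the epithelial programme, GRHL2 acts directly on CDH1, and ESRP1 sets the epithelial splicing pattern of many transcripts. Cells that pass to a mesenchymal state, often through repressors that bind E-box motifs, turn these genes down.

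Promoter sequences bear on these data at ELF3 and CLDN7, the 2 of the 8 genes with entries in the RefSeq promoter table (GRCh38.p14). The ELF3 sequence is shown because Brn2, a POU-domain factor, had a peak close to the start of ELF3, and POU factors are known to bind the octamer ATGCAAAT. The 250 bases before the start of ELF3 (chr1:202010337-202010586, plus strand) held this octamer at position -128 from the start, in capitals:
ELF3: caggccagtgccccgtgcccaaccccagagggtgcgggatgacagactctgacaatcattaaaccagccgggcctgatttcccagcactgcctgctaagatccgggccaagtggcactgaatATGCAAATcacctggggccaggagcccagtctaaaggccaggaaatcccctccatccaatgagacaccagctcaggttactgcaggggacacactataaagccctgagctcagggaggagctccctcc
On either strand, 1.63% of the 35116 promoters of the same length held ATGCAAAT or its reverse complement ATTTGCAT. The E-box CAGGTG, or CACCTG when read on the opposite strand, is shown because repressors of junction genes bind it. It was found 4 times in the promoter of the inner of the 2 CLDN7 starts, and 0.122% of all promoters held it 4 or more times, against 17.5% with 1 or more. Its matches at positions -174, -135 and -20, in capitals in their surroundings, were:
CLDN7 -174: ttcttcctcctCACCTGggcaaggaggg
CLDN7 -135: gacttccggttCAGGTGagtgtcccttc
CLDN7 -20: ctacatatactCAGGTGcgccccacctg
The fourth, at position -9, lay in the last bases of the preceding line. The outer CLDN7 promoter held 0 E-boxes and 0 octamers, and the ELF3 promoter held 1 E-box, at position -120, directly after its octamer without overlap. The SOX core ACAATG was searched with its reverse complement CATTGT, is present in 9.29% of promoters and was in none of these 3 sequences. These matches are letters in a window and not shown to be bound, and sequence and peaks are on different builds, so no peak was placed on a base.

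Between 16470 and 43480 peaks per library were listed for H3K27ac, over 24.6 to 73.7 Mb. LK2 lay at the low end and HCC2450 at the high end of the covered length. Factor lists held 4217 to 14048 peaks for Sox2, 1298 and 4819 for Brn2 and 3159 for p63. Read depth is unknown, so lengths were scaled to an equal total of 50.9 Mb per library where lines were compared. LK2 and NCI-H520 had 2 H3K27ac libraries each, and every other line and target had 1. Separate cultures are not mentioned in the labels. The p-values below rest on the spread between lines within the sets, with repeat libraries averaged to 1 value per line. Most lines had 1 library, so technical differences cannot be told apart from differences between lines in that spread.

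The lines were first examined for acetylation at the starts of the 8 genes, beside their label of squamous carcinoma, an epithelial tumour. A start counted as acetylated when an H3K27ac peak reached within 2 kb of the 5′ end. This was so in 80 of the 104 pairs of a gene and a line (76.9%). Starts of other genes were not counted, so these counts have no background share and do not test the label. All 8 starts were acetylated in LK2, in the set B lines HCC95, KNS62 and HCC2814, and in SQ-1 and EBC-1 of set C. HARA had 7, LC-1/SQSF 6, NCI-H520 and HCC2279 5 each, NCI-H2887 4, Calu-1 3 and HCC2450 2. The HCC2450 count includes ELF3, whose mark there depends on the start used (below). The labels call all 13 lines squamous carcinoma, and in Calu-1, HCC2450 and NCI-H2887 at most 4 of these 8 starts carried the mark. The whole library covered 73.7 Mb in HCC2450, 72.9 Mb in Calu-1, 71.3 Mb in HCC2279 and 69.4 Mb in LC-1/SQSF. It covered 35.4 Mb in NCI-H2887. Of the lines with all 8 starts, KNS62 had 68.0 Mb and LK2 had 29.1 and 24.6 Mb. Whether covered length bears on the number of acetylated starts was not tested.

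**Figure D1:**
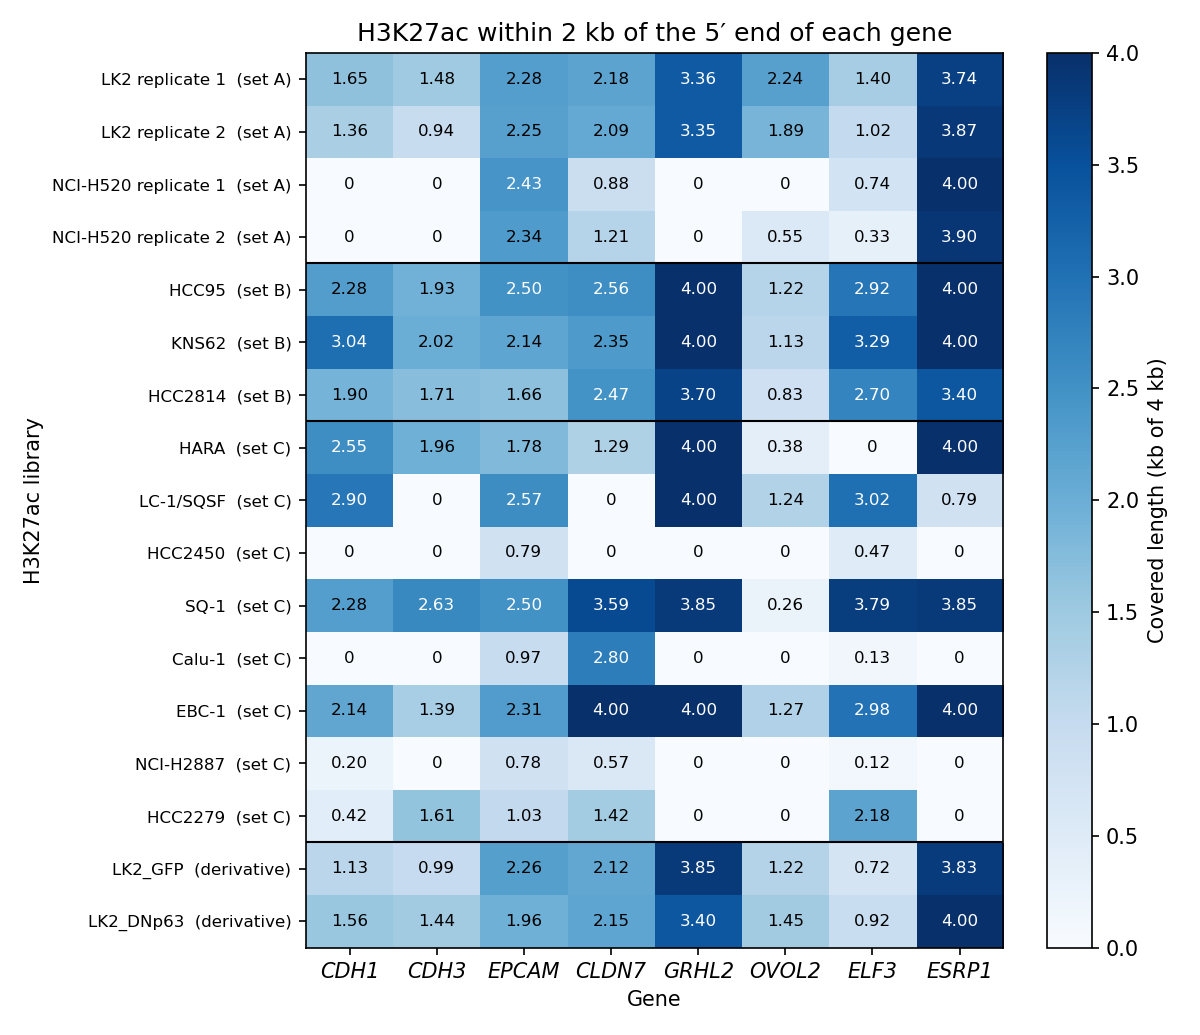
H3K27ac covered length in kb within 2 kb on either side of the 5′ end of each gene (columns) in each library (rows, with lines between the sets), where 4 kb is full coverage. EPCAM is covered in every library, whereas CDH1, CDH3, GRHL2, ESRP1 and OVOL2 are at 0 in HCC2450 and Calu-1.

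EPCAM was the gene whose start was acetylated in all 13 lines. The covered length there was 2.28 and 2.25 kb in the LK2 libraries and 2.43 and 2.34 kb in those of NCI-H520. Set B lines had 2.50 kb (HCC95), 2.14 kb (KNS62) and 1.66 kb (HCC2814). HCC2450, NCI-H2887, Calu-1 and HCC2279 had the shortest peaks, at 0.794, 0.783, 0.966 and 1.03 kb, and these are also the 4 lines in which none of the GRHL2, ESRP1 and OVOL2 starts was marked.

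ELF3 was marked in 12 lines and CLDN7 in 11. HARA was the line without ELF3. Its nearest H3K27ac peak in the window lay 10.2 kb inside the 5′ end. The span used for ELF3 begins upstream of the start that its RefSeq length implies, and in Calu-1 and NCI-H2887 only 0.126 and 0.12 kb fell within 2 kb of the given end while their peaks continued towards the gene. The HCC2450 peak, chr1:201976916-201977386, overlapped the given end and lay about 2 kb upstream of the implied start, chr1:201979404. That start was known only to the kb, so whether ELF3 counts as marked in HCC2450 depends on the start used. LC-1/SQSF and HCC2450 lacked the CLDN7 start, and Calu-1, otherwise low, had 2.80 kb there.

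CDH1 was marked in 10 lines and CDH3 in 8. Neither start carried a peak in NCI-H520, whose libraries covered 48.4 and 51.0 Mb, nor in HCC2450 or Calu-1. At the CDH1 start LK2 had 1.65 and 1.36 kb, set B lines had 1.90 to 3.04 kb, and HCC2279 and NCI-H2887 had only 0.424 and 0.205 kb, of which that of HCC2279 was gone when the distance was 1 kb. CDH3 was unmarked in LC-1/SQSF and NCI-H2887 too, and the HCC2279 peak near it lay upstream.

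GRHL2, ESRP1 and OVOL2 were unmarked in the same 4 set C lines, HCC2450, Calu-1, NCI-H2887 and HCC2279, and GRHL2 also in NCI-H520. Where the GRHL2 start was marked, 3.35 to 4 kb of the 4 kb was covered, so that lines were either almost fully covered or empty. ESRP1 showed the same split, with 3.40 to 4 kb in 8 lines, 0.786 kb in LC-1/SQSF and 0 in the other 4. OVOL2 was covered least, with 2.24 and 1.89 kb in LK2 and at most 1.27 kb elsewhere, and in NCI-H520 with 0.551 kb in replicate 2 alone. Within 1 kb, OVOL2 was marked in 5 lines instead of 9, and the count over all genes was 71 of 104 pairs. The whole count was 82 within 5 kb and 67 with an equal number of top-scoring peaks per list, both chosen after the data had been seen.

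The windows with their flanks held more than the starts. The unscaled covered length summed over the 7 windows was 64.3 kb ± 26.8 (SD, n = 13 lines) and ranged from 27.9 kb in NCI-H2887 to 104 kb in KNS62. After scaling, SQ-1 was highest with 103 kb and Calu-1 lowest with 23.9 kb. HCC2450 (34.3 kb), NCI-H520 (34.0 kb), HCC2279 (39.1 kb) and NCI-H2887 (40.2 kb) were next to Calu-1, and the LK2 value was 75.6 kb. The flanks can also reach neighbouring genes, which follow in RefSeq order (TANGO6 after CDH1, DPY19L4 after ESRP1). A merged region acetylated in all 13 lines lay 106 kb from the CDH1 5′ end and another 79.2 kb from that of ESRP1, outside the spans given for these genes. Regions in all 13 lines were 1 of 24 in the CDH3-CDH1 window, 0 of 17 for GRHL2, 1 of 7 for ESRP1, 2 of 6 for EPCAM, 2 of 6 for CLDN7, 0 of 6 for ELF3 and 0 of 1 for OVOL2. Those of CLDN7, 11.9 and 21.3 kb from its 5′ end, lay outside the given span. So did the EPCAM region 34.5 kb from its 5′ end.

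**Figure D2:**
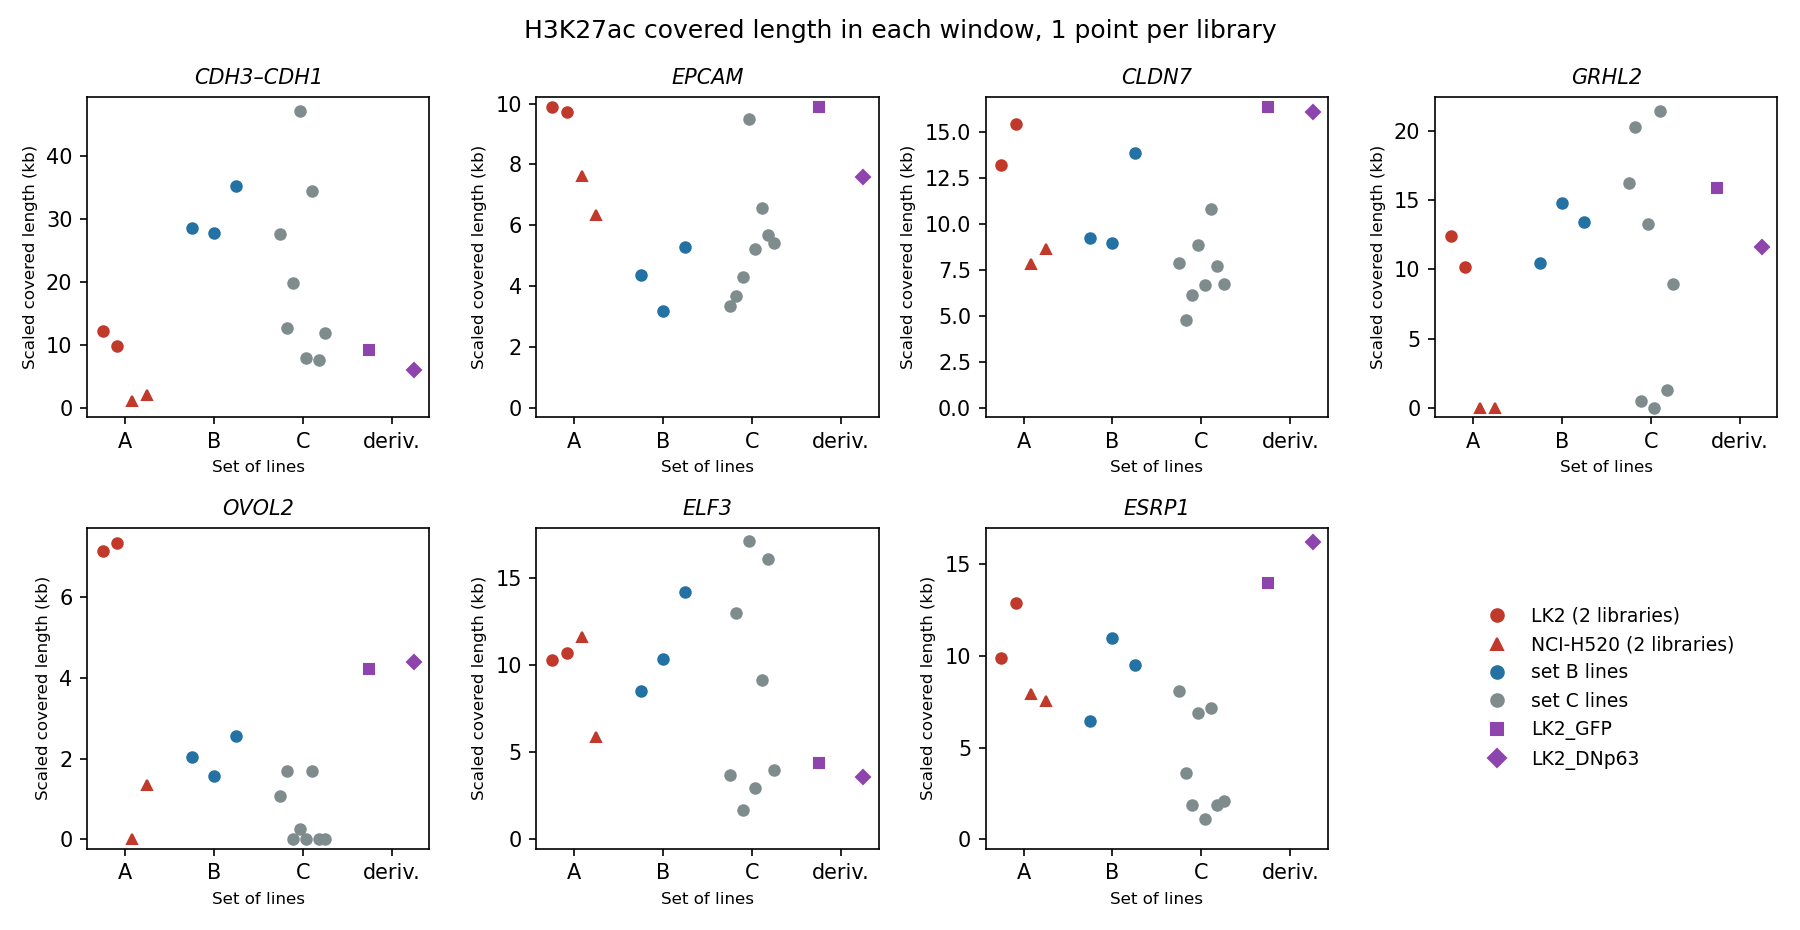
Scaled H3K27ac covered length in kb in each of the 7 windows (panels), 1 point per library, by set of lines, with LK2_GFP and LK2_DNp63 at the right. In the CDH3-CDH1 panel the LK2 and NCI-H520 points lie below all 3 set B points, and in the OVOL2 panel the LK2 libraries lie above every other line.

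The cadherin window, chr16:68658001-68890000, showed the widest range in total length and is also the longest window. Per 50 kb and after scaling it ran from 0.344 to 10.1 kb over the 13 lines, against 1.71 to 17.5 kb for ELF3 and 5.41 to 16.3 kb for CLDN7. Its scaled covered length was 11.01 kb in LK2 and 1.59 kb in NCI-H520, against 28.5 kb in HCC95, 27.8 kb in KNS62 and 35.3 kb in HCC2814. Set C lines ran from 7.58 kb (NCI-H2887) through a median of 16.2 kb to 47.1 kb (SQ-1). Both set A lines thus lay below each set B line, while set C covered almost the whole range. In repeat libraries the value was 7.003 and 4.727 kb before scaling in LK2 and 1.08 and 2.05 kb in NCI-H520. In the fit of all bins and windows, set A minus set B was -1.82 on the log2 scale (SE 0.60), with means of 1.36 kb ± 1.43 (SD, n = 2 lines) and 6.57 kb ± 0.892 (n = 3 lines) per 50 kb, and it did not pass (limma adjusted p = 0.0788). Fitted on sets A and B alone, the same difference passed (limma adjusted p = 0.0255), and without NCI-H520 it was -1.16 (limma adjusted p = 0.530). Over the alternatives it ran from -2.51 with 200 bp added to -0.88 with 5000 bp added. Set A minus set C was -1.20 (SE 0.52, limma adjusted p = 0.147), with -1.86 without LK2, -0.53 without NCI-H520 and -0.55 with 5000 bp added.

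Of the 10 bins, 1 passed between sets A and B, a stretch between the starts of CDH3 and CDH1. In the bin chr16:68700001-68750000, no H3K27ac was called in LK2 or NCI-H520, and set B lines had 5.49 kb ± 1.85 (SD, n = 3 lines) after scaling. The log2 difference, set A minus set B, was -2.66 (SE 0.64, limma adjusted p = 0.0204). The bin met the filter through set B, with a mean of 2.53 kb over all lines and 1.65 kb without set B, so the call describes a bin admitted by its high group. The other 9 bins met the filter without set B as well. Without any filter the adjusted p was 0.0217 (limma). Set C had 2.06 kb ± 1.80 (n = 8 lines), and set A minus set C was not called (limma adjusted p = 0.117). With both set A lines at 0 the size follows the added constant, and it ran from -4.78 to -1.05 over the alternatives. The call ended without LK2 (adjusted p = 0.127), NCI-H520 (0.160) or HCC2814 (0.0739) and with equal numbers of top peaks (0.0692), all by limma. Of all 8762 bins tested, 8.58% were called between sets A and B and 5.30% were called with set A lower, so 1 of the 10 bins in these windows is near that share. Values of sets A and B did not overlap in 4 of the 10 bins with set A lower and in 1 with set A higher. Of all bins, 26.9% and 12.8% separated in these directions. The 4 bins were neighbours in the CDH3-CDH1 window, so they describe 1 locus. The 1 bin, chr2:47600001-47650000, was in the EPCAM window but began past the EPCAM start. Its region acetylated in all 13 lines, chr2:47628660-47632299, lay beyond the end given for EPCAM. Inside the gene, the bin held chr2:47600348-47601018, found among the 13 lines in NCI-H520 alone. Between sets A and C, 0 of the 10 separated in either direction (9.35% of all bins with set A higher, 9.76% lower), nor did any between sets B and C (1.57% with set B higher, 0.331% lower).

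**Figure D3:**
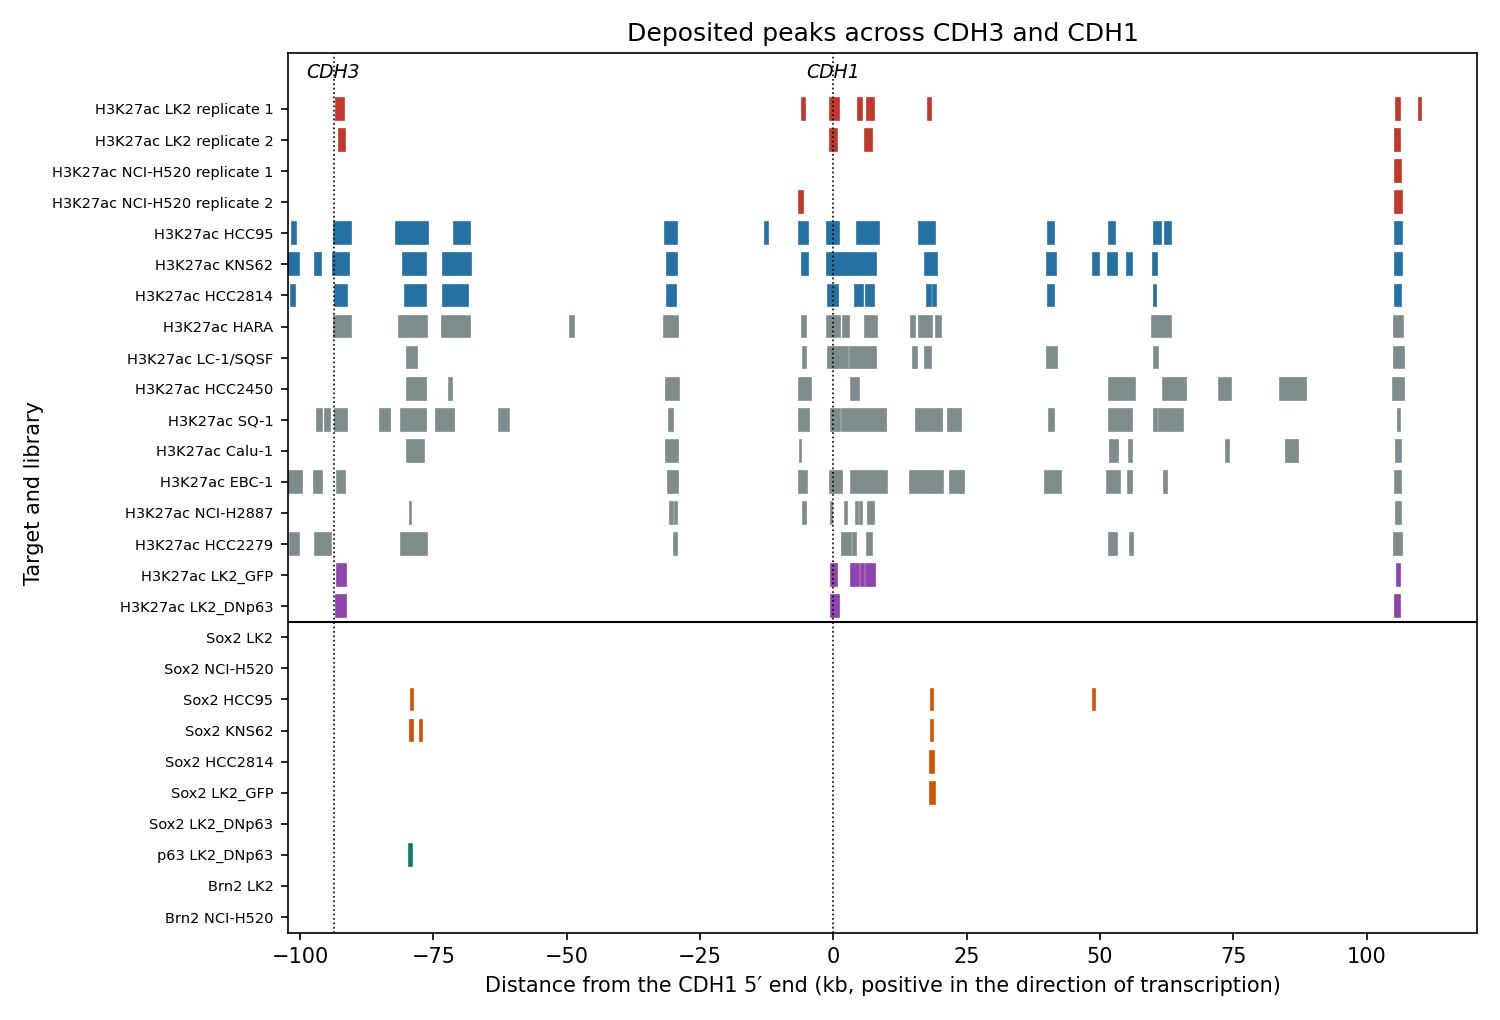
Positions of all deposited peaks across CDH3 and CDH1, in kb from the CDH1 5′ end (dotted lines mark the 5′ ends), 1 row per library with H3K27ac above the line and factors below it. Set B rows carry peaks between the genes that LK2 and NCI-H520 lack, and the region 106 kb from the CDH1 5′ end, past the end of the gene, is present in every H3K27ac library.

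Along this locus, individual regions showed which parts were acetylated. Within CDH3, chr16:68689770-68695792, centred 14.8 kb from its 5′ end, was acetylated in 10 of the 13 lines, all but LK2, NCI-H520 and EBC-1, and in neither LK2 derivative. A region upstream of CDH1, chr16:68739964-68742842, was acetylated in 10 lines and again in neither set A line. The first part of CDH1 was covered over 11.2 kb by a merged region, chr16:68770582-68781739, found in 11 lines, which did not include NCI-H520 or Calu-1. HCC2450 reached that region through a peak inside the gene while its CDH1 start was empty. Towards the far end of CDH1, chr16:68855505-68860467 was acetylated in HCC2450 and Calu-1, 2 lines without an acetylated CDH1 start, and in no other line.

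GRHL2 split the lines into present and absent. The window, chr8:102485001-102702000, had 0 kb in both NCI-H520 libraries and in Calu-1, 0.762 kb in HCC2450 and 0.904 kb in NCI-H2887, unscaled. LK2 had 7.10 and 4.92 kb in its libraries, set B 8.35 to 19.7 kb, and the other set C lines 12.5 to 27.6 kb. The set A mean therefore stands for 1 line with the mark and 1 without it. Set A minus set B was -1.06 (SE 0.84, limma adjusted p = 0.537), and set A minus set C turned from -0.51 to 0.41 without NCI-H520.

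For ESRP1 and ELF3 no difference between sets passed, and OVOL2 could not be tested. ESRP1 had a scaled length of 11.4 kb in LK2, 7.74 kb in NCI-H520 and 6.45 to 10.99 kb in set B, and from 1.10 to 8.07 kb in set C (median 2.86). Unscaled, LK2 had 5.94 kb there and ranked 7 of the 13 lines. Set A minus set C was 1.02 (SE 0.45, limma adjusted p = 0.148), and set B minus set C was 0.95 (SE 0.38, adjusted p = 0.380). The scaled length of OVOL2 reached 7.25 kb in LK2 and 1.58 to 2.57 kb in set B. In set C it was at most 1.69 kb, with 4 of 8 lines at 0. LK2 exceeded every other line, NCI-H520 had 0.667 kb, and the window stayed under the filter. ELF3 ranged from 1.67 kb (HCC2450) to 17.1 kb (SQ-1) after scaling. Unscaled, NCI-H520 gave 11.02 kb in replicate 1 and 5.90 kb in replicate 2. No ELF3 contrast had an adjusted p under 0.645 (limma).

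The windows of EPCAM and CLDN7, the remaining junction genes, held H3K27ac in every line when the flanks were included. The scaled length of EPCAM was 9.82 kb in LK2 and 6.98 kb in NCI-H520. It was 3.19 to 5.29 kb in set B and 3.35 to 9.49 kb in set C. Unscaled, LK2 had 5.18 kb in the EPCAM window and ranked 7 of the 13 lines. Both set A lines exceeded the 3 set B lines, and set A minus set B was 0.81 (SE 0.35, limma adjusted p = 0.191). Within the gene itself, without the flanks, the scaled length of EPCAM was 5.60 kb in LK2 and 4.18 kb in NCI-H520. Each of the 11 other lines was lower (0.549 to 2.41 kb). Unscaled, it was 2.91 kb in LK2 and 4.07 kb in NCI-H520, against 0.783 to 2.04 kb in the other lines. For the scaled length of this span, set A minus set C was 1.81 (SE 0.37) and passed (limma adjusted p = 0.00576). Set A minus set B, 1.35 (SE 0.43), did not (limma adjusted p = 0.0690). Of all bins, 12.8% were called between sets A and C. The fit without flanks was an alternative setting, and it was not repeated with a line left out. CLDN7 ranged from 4.76 kb (LC-1/SQSF) to 14.3 kb (LK2), and its span without flanks was empty in LC-1/SQSF, HCC2450, NCI-H2887 and HCC2279.

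**Figure D4:**
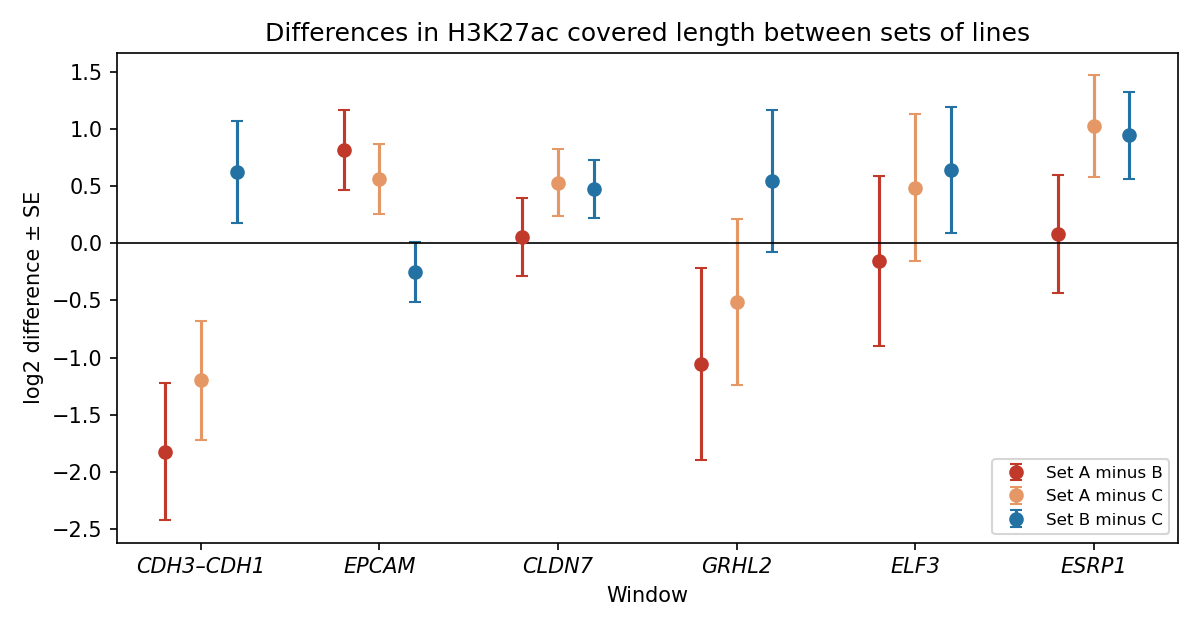
Log2 differences in scaled H3K27ac covered length between sets of lines for the 6 windows that passed the filter, from the fit of all bins and windows; bars are standard errors. The CDH3-CDH1 difference between sets A and B, -1.82, is the farthest from 0, and none of the 18 differences passed.

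In all, 0 of the 6 windows tested passed limma in any of the 3 comparisons of the main fit. CDH3-CDH1 and EPCAM had an unadjusted p under 0.05 for set A against set B, CDH3-CDH1 and ESRP1 for set A against set C, and ESRP1 for set B against set C. Of all bins, 21.9%, 28.8% and 11.9% had one in these comparisons, so 2 of 6, 2 of 6 and 1 of 6 windows are near those shares. Of all bins, 12.8% were called between sets A and C, and limma called 0 (0.00%) between sets B and C, where 1043 had an unadjusted p under 0.05. Only limma was run.

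Over the 13 lines some windows moved together. The scaled lengths of ESRP1 and CLDN7 (Spearman 0.76), ESRP1 and OVOL2 (0.74) and OVOL2 and CLDN7 (0.70) gave the highest of the 21 correlations. GRHL2 and EPCAM (-0.25), CDH3-CDH1 and EPCAM (-0.15) and EPCAM and OVOL2 (0.04) gave the lowest. Other pairs with EPCAM gave 0.42 (CLDN7) and 0.41 (ELF3). Values of a line come from the same library or libraries and share its scaling, so these correlations only describe the 13 lines.

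Sox2, Brn2 and p63 sites were then read in the same windows. The 10 factor lists had 61 peaks there, 53 of Sox2, 6 of Brn2 and 2 of p63, which merged into 28 sites. Of these sites 17 were in 1 list and 8 in 3 or more. HCC95 had 12 Sox2 peaks in 6 windows, KNS62 10, HCC2814 9, NCI-H520 6 and LK2 4. Of the 10 bins, 6 held a Sox2 peak in HCC95, against 45.1% of all bins, 4 in KNS62 (32.3%), 4 in HCC2814 (28.9%), 3 in NCI-H520 (34.2%) and 2 in LK2 (20.5%). LK2_GFP had one in 5 of the 10 (31.6%). The shares in LK2 and NCI-H520 are at or below those of all bins, and those of the set B lines somewhat above them in 10 bins. An H3K27ac peak of the same line overlapped 29 of the 53 Sox2 peaks, where LK2_GFP and LK2_DNp63 were each set against their own H3K27ac library. The share over all Sox2 peaks was not computed, so this count describes these windows alone.

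A site inside GRHL2 was the one shared most widely. Sox2 peaks lay at chr8:102619670-102620851, 115 kb from the 5′ end, in LK2, NCI-H520, HCC95, KNS62 and HCC2814, in LK2_GFP and LK2_DNp63, and Brn2 had a peak there in LK2. The Sox2 peak ranked, by the authors' score, in the top 0.269% of the KNS62 list, 0.460% of LK2, 0.748% of LK2_GFP, 4.30% of HCC2814, 10.0% of NCI-H520 and 32.2% of HCC95. In LK2_DNp63 it ranked at 56.4%. Genome-wide, 283 of the 35819 Sox2 sites merged over the 5 lines (0.790%) were found in all 5. H3K27ac at the site was called in KNS62, HARA, SQ-1, EBC-1 and HCC2279, which include 1 of the 5 lines with Sox2 there. No library of LK2, its derivatives, NCI-H520, HCC95 or HCC2814 had an acetylated peak on it.

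**Figure D5:**
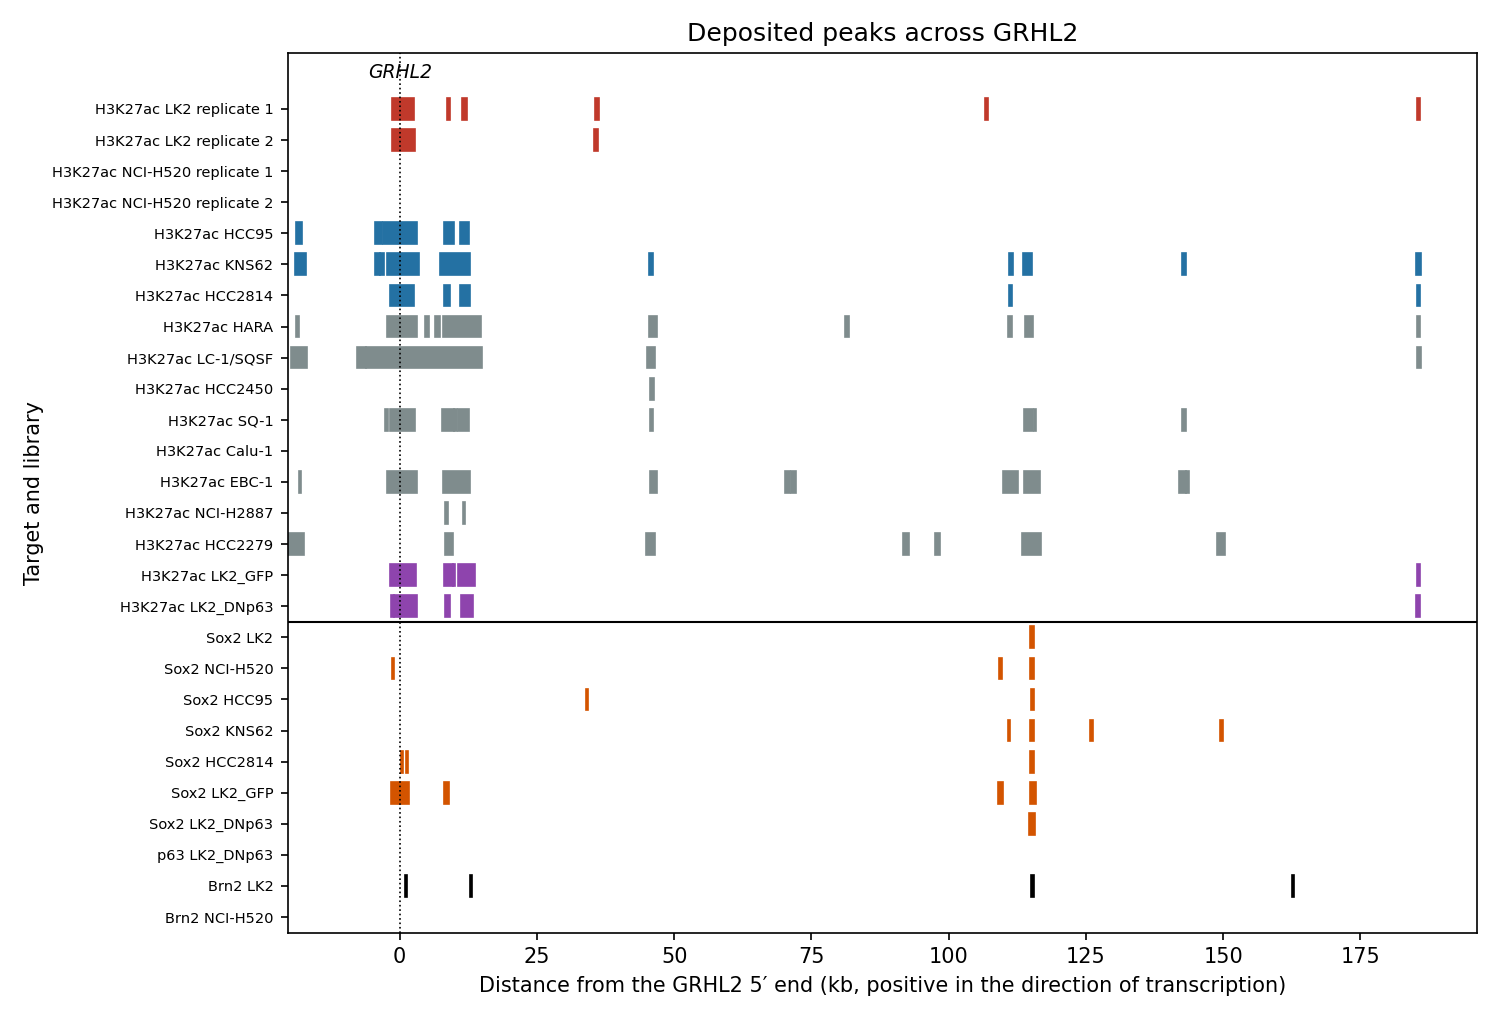
Positions of all deposited peaks across GRHL2, in kb from its 5′ end (dotted line), with H3K27ac libraries above the line and factor lists below it. Sox2 peaks of all 7 Sox2 lists and a Brn2 peak of LK2 stack 115 kb inside, whereas H3K27ac rows of NCI-H520 and Calu-1 are empty.

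NCI-H520 therefore carried Sox2 peaks inside GRHL2 in a window without any H3K27ac. It had 3 there, at 109 and 115 kb and at chr8:102503563-102503915, 1.26 kb before the 5′ end. The merged site at that end, chr8:102503475-102506667, also held Sox2 of LK2_GFP and HCC2814 and Brn2 of LK2, and was acetylated in 8 lines. Brn2 of LK2 had further peaks 12.9 and 163 kb inside GRHL2, both near the lowest scores of that list (50.8, where the list starts at 50).

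At the ESRP1 start, Sox2 was called in 4 lines. The site chr8:95650915-95653834 was present in LK2, NCI-H520, HCC95, KNS62, LK2_GFP and LK2_DNp63, and not in HCC2814. It ranked in the top 6.34% of Sox2 peaks in NCI-H520, 14.9% in HCC95, 16.7% in LK2 and 39.8% in KNS62. The mark was called there in 8 lines, HCC2814 among them. HARA, SQ-1 and EBC-1, in which Sox2 was not assayed, were the other 3 beside LK2, NCI-H520, HCC95 and KNS62.

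Sites at the cadherins were found in set B lines and not in the unmodified set A lines. At chr16:68789889-68790781, 18.6 kb inside CDH1, Sox2 was called in HCC95, KNS62, HCC2814 and LK2_GFP. The best rank was 12.2% in HCC2814, and the peak in LK2_GFP ranked low in its list (90.6%). H3K27ac was called there in 8 lines. At chr16:68692078-68692971, 14.5 kb inside CDH3, Sox2 was called in HCC95 and KNS62 (ranks 81.2% and 63.7%) and p63 in LK2_DNp63 (18.3%). This is the CDH3 region acetylated in 10 lines and in no library of LK2 or its derivatives.

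ELF3 and CLDN7 had distal sites. Downstream of ELF3, chr1:201997980-201998990 held Sox2 in NCI-H520, KNS62, HCC2814 and LK2_GFP and Brn2 in LK2, with acetylation in 7 lines. Sox2 ranked at 3.95% in HCC2814, 32.7% in KNS62, 80.2% in NCI-H520 and 80.9% in LK2_GFP. The Brn2 peak of LK2 ranked at 99.5%, among the weakest of its list. Near the ELF3 start, chr1:201979372-201979900 held Sox2 in NCI-H520 (rank 59.0%) and Brn2 in LK2 (rank 66.6%). The 2 peaks were centred 0.233 and 0.232 kb past a start counted back from the 3′ end by the RefSeq length of 6597 bp. That end was known only to the kb, so the peaks may lie on either side of the start. Whether they overlap the ELF3 sequence printed above could not be told. At this site 11 lines were acetylated. Near the CLDN7 start, chr17:7167936-7168311 held Sox2 of LK2 and LK2_GFP (ranks 75.6% and 63.7%), 1.12 kb upstream, and was acetylated in 6 lines, none of them LK2. Its flanks held Sox2 of LK2, LK2_GFP, HCC95 and HCC2814 at chr17:7184400-7185322 (ranks 81.6%, 59.6%, 53.2% and 81.8%). Sox2 of LK2_GFP, HCC95 and HCC2814 also lay at chr17:7145337-7146650 (ranks 34.4%, 18.2% and 51.4%), in a region acetylated in all 13 lines. GABARAP, CTDNEP1, ELP5 and SLC2A4 neighbour CLDN7 in RefSeq order, and sites were not assigned among these genes.

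EPCAM and OVOL2 were nearly free of factor peaks. EPCAM had 1 Sox2 peak of HCC95 0.215 kb from its 5′ end and 1 of HCC2814 16.2 kb upstream, and OVOL2 had 1 of HCC95 3.28 kb upstream. Brn2 of NCI-H520 had 0 peaks in all 7 windows and in 0 of the 10 bins, where 6.81% of all bins held one. Brn2 of LK2 had its 6 peaks in the GRHL2 and ELF3 windows and in 2 of the 10 bins, against 17.9% of all bins. Chromatin for Brn2 was prepared by a different protocol from that for Sox2, so the lists differ in more than the factor.

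The derivatives showed these genes in LK2 cells named for p63. With 1 library per arm there was no test. The scaled length per 50 kb was 1.99 kb in LK2_GFP and 1.29 kb in LK2_DNp63 for CDH3-CDH1, 8.52 and 6.54 kb for EPCAM, 18.6 and 18.3 kb for CLDN7 and 3.65 and 2.67 kb for GRHL2. For ESRP1 it was 6.53 and 7.59 kb, for OVOL2 2.82 and 2.93 kb and for ELF3 4.45 and 3.63 kb. No window was 2-fold apart, with log2 differences from -0.38 (CDH3-CDH1) to 0.19 (ESRP1), where 4.38% of the bins tested were 2-fold higher and 3.91% 2-fold lower in LK2_DNp63. With equal numbers of top peaks CDH3-CDH1 turned to 0.07 and CLDN7 from -0.02 to 0.04, and CLDN7 was 0.08 without scaling. In the unmodified LK2 libraries ELF3 had 10.5 and 10.9 kb per 50 kb and OVOL2 4.76 and 4.90 kb, so that both derivatives lay below them. For CDH3-CDH1 both were below the LK2 libraries after scaling (2.64 and 2.11 kb) but not without it, and both were above them for ESRP1 (4.61 and 6.03 kb) and CLDN7 (15.0 and 17.6 kb). All 8 starts stayed acetylated in both derivatives.

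Single peaks differed more than windows. In CDH1, 5 H3K27ac peaks of LK2_GFP between chr16:68775103-68775773 and chr16:68778852-68779468, inside the gene, had no counterpart in LK2_DNp63. The LK2_DNp63 list had 3 peaks in the window against 10. Repeat libraries of unmodified LK2 also differed there, with 9 peaks in replicate 1 and 4 in replicate 2. Whether the derivatives differ by more than repeat libraries do was not tested. Over the 7 windows 10 of 35 H3K27ac peaks of LK2_GFP had no counterpart, where 26.5% lacked one genome-wide, and 3 of 25 of LK2_DNp63 were without one in LK2_GFP, against 26.6% genome-wide. One of these, chr8:95668852-95670862 inside ESRP1, held the p63 peak chr8:95669700-95670198. That region was acetylated in HCC95, KNS62, HCC2814 and HARA, and not in LK2 or LK2_GFP. The p63 peak was among the weakest of its list (98.9%). The other p63 peak, in CDH3, lay in no acetylated region of LK2_DNp63. The 10 bins held a p63 peak in 3 cases, against 12.5% of all bins, but in the ELF3 bin that peak lay outside the window, which leaves 2.

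Sox2 peaks in these windows were fewer in LK2_DNp63. Of the 10 Sox2 peaks of LK2_GFP, 8 had no counterpart, and the 2 with one were those inside GRHL2 and at the ESRP1 start. Genome-wide 70.8% of LK2_GFP Sox2 peaks had no counterpart, so the share in these windows is near that of the whole list. The Sox2 list of LK2_DNp63 was the shortest, with 4217 peaks against 12034 in LK2_GFP, and how much of this difference comes from the libraries was not tested.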

How the data were processed

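ChIP-seq peak lists of 13 unmodified LUSC lines and 2 LK2 derivatives were used, 27 of the 43 samples in the labels; the 16 inputs were not analysed here. The submitters' processing notes name Bowtie2 and the build hg19 (GRCh37). The deposited lists give positions (start and end, in base pairs) and a score per peak, which is the authors' value on a scale not given in the sources used here. Peak names begin with MACS; caller version, threshold and use of inputs are not given there either. Scores were used only to rank peaks within a list. There are no read counts, so no intervals for counting error could be given.

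Chromatin was cross-linked with formaldehyde and sonicated for H3K27ac, Sox2 and p63, and cross-linked with a second agent and digested with micrococcal nuclease for Brn2, per the labels' protocols. Members, lists and comparisons were chosen with earlier results of these data known. Peaks outside chromosomes 1 to 22 and X were dropped, and 1 bp of overlap counted as shared. Gene spans were known to the kb, and the 5′ end of CDH1 was counted back by its RefSeq length. Covered length per 50 kb bin and per window was scaled to the same total, and its log2 value after adding 1000 bp entered limma 3.58.1 (R 4.3.3) with a mean-variance trend over bins and windows with a mean of at least 2000 bp per 50 kb, in 1 fit of the 3 sets. Libraries of LK2 and NCI-H520 were averaged per line, and the Benjamini-Hochberg adjusted p had to be under 0.05. The fit was tested on simulated data. All 8 genes are named, with bins that passed, sites in 3 or more factor lists and every Brn2 and p63 site; other regions and sites were named after their values were seen. Codes in the labels that may mark sequencing runs occur in no more than 2 libraries, which gives no values within a run. Wider lists of epithelial genes were not used because positions on hg19 were not at hand. Alternatives changed the constant, scaling, filter, flank, bins, peaks, lines and libraries.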

Additional observations from a re-analysis of the deposited data

How the results depend on the processing

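Under the alternatives, 108 counts and summary values stayed within the limit set for a change and 23 moved; of single windows and bins 339 values kept direction and side of the threshold, 19 turned, 4 lost and 2 gained a call. Rows called between sets A and B were 752 (288 higher, 464 lower), and 432 without scaling, 1828 without the filter, 326 with equal numbers of top peaks, 1735 with these sets alone, and 159 (without NCI-H520), 340 (LK2), 498 (HCC95), 506 (HCC2814) and 527 (KNS62) with a line left out, and 914 without replicate 1. Between sets A and C they were 1120, and 2217 without the filter, 454 with top peaks, and from 251 (without NCI-H520) through 421 (LK2) to 1536 (LC-1/SQSF). Between sets B and C they were 0, and 4 and 1 with 200 and 5000 bp, 35 without the filter, 2 with top peaks, and 0 to 47 with a line left out (47 without LC-1/SQSF, 10 HARA, 2 KNS62). The share of higher calls moved from 38.3% to 28.2% (A and B) and from 44.5% to 19.0% (A and C) without scaling, when the median log2 difference moved from -0.18 to -0.49 and from -0.11 to -0.63. It was 26.2% and 32.8% with 200 bp, 55.0% and 65.1% with 5000 bp, and 71.4% and 77.3% without the filter. The causes were not tested.

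Called windows rose from 0 to 1 with sets A and B alone (CDH3-CDH1) and to 1 without the flank (EPCAM, A and C). For set A minus set B, ESRP1 turned to -0.29 without scaling, -0.061 with a 50 kb flank, -0.10 without HCC95 and -0.15 without LK2 (up to 0.31 without NCI-H520); ELF3 to 0.027 with a 50 kb flank, 0.015 without replicate 2 and 0.025 without HCC2814 (down to -0.56 without scaling, -0.39 without replicate 1); CLDN7 to -0.36 without scaling, -0.12 with top peaks, -0.04 without replicate 2, -0.03 without HCC95, -0.05 without KNS62 and -0.32 without LK2 (up to 0.42 without NCI-H520). For set A minus set C, GRHL2 turned to 0.41 without NCI-H520 (-1.44 without LK2), and without scaling EPCAM turned to -0.023, ELF3 to -0.11 and CLDN7 to -0.10. EPCAM, set B minus set C, turned to 0.46 without the flank and 0.17 with 50 kb. All of these missed the threshold. The summed length was 93.3 kb ± 36.3 with a 50 kb flank, and Sox2 peaks numbered 53, 34 without the flank and 22 with top peaks. No paired analysis was possible because replicate numbers belong to repeat libraries of single lines and only set A has them. Depth is unknown, so a missing peak may be one under the caller's threshold.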
